A study of Mus musculus with 39 samples.

Results

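Map2 crRNA 1 is a guide RNA that directs the RNA-targeting nuclease RfxCas13d to the mRNA of Map2, and it was set against a non-targeting (NT) crRNA in wild-type (WT) N2a cells, a mouse neuroblastoma line. The comparison rests on 6 libraries of the 39 in the series, which are the 3 of WT cells with Map2 crRNA 1 and the 3 NT libraries of the same set. The tested cells received plasmids encoding RfxCas13d and Map2 crRNA 1, the control cells RfxCas13d and the NT crRNA, and all were collected 48 h later, so the controls carried the nuclease as well. Beside them, the same set of WT cells was transfected with RfxCas13d and 6 other crRNAs (Sik3 crRNA 1 and 8, Map2 crRNA 3, Mapt crRNA 4 and 6, Rbfox3 crRNA 3; 3 libraries each), and a separate N set held Rbfox3 crRNA 5 and 3 further NT libraries. Library names fell into 2 series, LDK (2 of the 3 libraries of each WT-set group) and LDL (the third library and the whole N set). Nothing in the labels says whether replicates came from separate cultures, and p-values therefore measure the spread between these libraries, which may be technical. The study's methods sort GFP-positive cells before RT-qPCR of knockdowns, while the labels of these libraries name no sort, so whether it applied here is not given. The share of cells that took up the plasmids was not given either, and in bulk RNA fewer cells with a transcript and less of it per cell cannot be told apart.

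RfxCas13d is a type VI CRISPR effector that cuts RNA, not DNA, when the spacer of its crRNA pairs with a transcript, and once activated by its target it can also cut other RNAs nearby. MAP2 binds and stabilizes microtubules in neuronal dendrites and anchors protein kinase A there. It shares its microtubule-binding repeats with tau, the product of Mapt found mainly in axons, and with MAP4, the family member of most other cells.

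The spacers are shown because they are the only designed difference between the groups. In the following lines the bases are given 5′ to 3′, and the spacers of Map2 crRNA 1, Map2 crRNA 3 and the NT crRNA are followed by the Map2 mRNA sites of the first and second, with no capitals because every base of the spacer pairs with its site.
Map2 crRNA 1 spacer: actctcaattttcacacgtcca
Map2 crRNA 3 spacer: gagcattgtcaagtgagccaac
NT crRNA spacer: tcaccagaagcgtaccatactc
Map2 crRNA 1 site: tggacgtgtgaaaattgagagt
Map2 crRNA 3 site: gttggctcacttgacaatgctc
The crRNA 1 site lies on the plus strand of chr1:66438258-66438279 (GRCm38), in coding sequence of exon 14 of the 15 exons of the transcript Map2-206. The crRNA 3 site follows at chr1:66438316-66438337 in the same exon, with 36 bases between the sites. Of 24 annotated Map2 transcripts, 12 hold the crRNA 1 site and 9 the crRNA 3 site, and of the 16 with a coding sequence 11 and 8 do.

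Estimated from the steps between low FPKM values (fragments scaled by transcript length and library size), the Map2 crRNA 1 libraries held 14246878 to 16874763 counted reads against 12342037 to 15079412 in NT, with 15311 to 15886 genes above 0 against 15933 to 16239. Of 20 neuroblastoma and neuronal markers, 16 averaged at least 1 FPKM over these libraries, and their summed level was 2446 to 2620 FPKM with crRNA 1 and 2396 to 2532 FPKM in NT. Markers of other cells were near 0: summed levels with crRNA 1 against NT were 0.794 to 1.07 against 0.732 to 1.07 FPKM for fibroblasts, 0.653 to 0.872 against 0.792 to 1.94 FPKM for immune cells, 0 to 0.0884 against 0.0693 to 0.147 FPKM for astrocytes (Aqp4 and Slc1a3 at 0), 0 to 0.0535 against 0 to 0.0731 FPKM for epithelia (Epcam at 0) and 0 against 0.0322 to 0.103 FPKM for hepatocytes. Oligodendrocyte markers summed to 2.49 to 2.71 FPKM against 2.38 to 3.05 FPKM, and endothelial ones to 6.85 to 7.67 FPKM against 5.62 to 6.09 FPKM, nearly all of it Pecam1, with Kdr at 0.

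Map2 was lower with crRNA 1 in every library. Its level was 2.20, 2.12 and 2.11 FPKM with Map2 crRNA 1, against 8.16, 9.06 and 8.15 FPKM in NT. The 3 crRNA 1 values lay close together and far under the lowest NT value. Map2 fell by 1.76 on the log2(FPKM + 0.5) scale (SE 0.0710, adjusted p = 5.11e-15 in limma), which left 25.4% of the NT mean. That fit took the spread from all 30 WT libraries. With only the 6 libraries compared, the adjusted p in limma was 2.79e-05. An exact two-sided permutation test on the 6 values gave p = 0.1, the smallest that 3 against 3 libraries allow. Within series LDK the log2 difference was −1.77 and within LDL −1.73. The 5 other crRNAs of the WT set that do not target Map2 left it at group means of 8.98 to 10.4 FPKM, and NT of the N set averaged 6.16 ± 0.522 FPKM (SD, n = 3). Map2 crRNA 3 left less, at 1.11, 1.01 and 0.896 FPKM, so crRNA 1 stood 0.82 higher than crRNA 3 on the log2 scale (SE 0.0710, adjusted p = 6.23e-09).

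**Figure D1:**
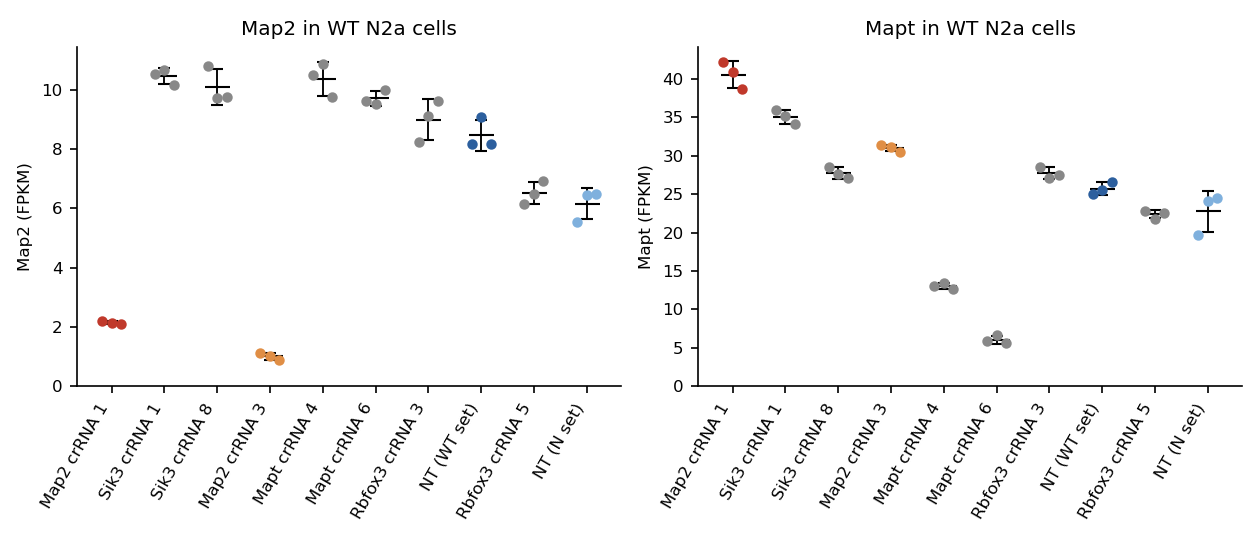
Map2 and Mapt levels (FPKM, linear axis) in each library of the 10 groups of WT cells, points for libraries and bars for mean ± SD (n = 3). Map2 sits at 2.11 to 2.20 FPKM with Map2 crRNA 1 and at 8.15 to 9.06 FPKM in NT of the WT set, while Mapt is highest with Map2 crRNA 1, at 38.7 to 42.1 FPKM.

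Mapt, the tau gene, moved the other way. It was at 42.1, 40.9 and 38.7 FPKM with Map2 crRNA 1, against 25.0, 25.6 and 26.6 FPKM in NT. All crRNA 1 libraries lay above all NT libraries (log2 difference 0.65, SE 0.0586, adjusted p = 3.98e-09). Map2 crRNA 3 had 31.4, 31.1 and 30.5 FPKM, below each crRNA 1 library (crRNA 1 minus crRNA 3 0.38, adjusted p = 2.13e-05), and Sik3 crRNA 1 came nearest with 35.9, 35.2 and 34.1 FPKM. Sik3 crRNA 8 and Rbfox3 crRNA 3 averaged 27.77 and 27.74 FPKM, beside 25.72 FPKM in NT. A Mapt level above NT was therefore not particular to Map2 crRNA 1 or to crRNAs against Map2. Map4 stood at 20.8, 21.8 and 19.7 FPKM against 16.04, 16.6 and 15.9 FPKM in NT (0.35, SE 0.0548, adjusted p = 1.20e-05), again without overlap. With crRNA 3 Map4 was at 16.7, 16.1 and 14.7 FPKM, around the NT range, and 0.38 under crRNA 1 on the log2 scale (adjusted p = 8.89e-06). The higher Map4 level was not particular to Map2 crRNA 1, since it averaged 20.79 FPKM there and 20.78 FPKM with Sik3 crRNA 1. Sik3 crRNA 8 and Mapt crRNA 4 averaged 18.89 and 18.63 FPKM. Mapt crRNA 6 and Rbfox3 crRNA 3 averaged 16.67 and 16.36 FPKM, beside 16.18 FPKM in NT. NT of the N set was lower than NT of the WT set, averaging 11.03 FPKM for Map4 and 22.76 FPKM for Mapt.

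Whether other transcripts resemble the crRNA 1 site was read from annotated transcripts of GRCm38. Besides Map2, no tested gene held a window with fewer than 4 mismatches. The 6 tested genes at 4 mismatches are shown as the closest sites, with capitals marking the bases that differ from the Map2 site.
Cdnf site: tggacCtgtgGaaGAtgagagt
Cnrip1 site: tggacCtgtgaaaaGAgagagA
Gatad2a site: tggacAtgtgGGaGttgagagt
Pter site: tgTacTtCtgaaaCttgagagt
Sgsh site: tggaAgtgtgaaaCttgaTGgt
Ube4a site: tggGTgtgtgaaaattgagGgA
Cnrip1, which encodes a protein that binds the cannabinoid receptor CB1, was higher with crRNA 1 (0.36, adjusted p = 0.000193), as was Pter (0.44, adjusted p = 0.00528). Gatad2a, a subunit gene of the NuRD complex, was lower (−0.19, adjusted p = 0.00352). Cdnf (−0.06), a neurotrophic factor gene, Sgsh (0.19), a lysosomal sulfatase gene, and Ube4a (−0.08), a ubiquitin ligase gene, did not pass. Over the 40 tested genes with a window of at most 5 mismatches, 13 were higher, 6 were lower and 21 did not pass, with a median of 0.06, beside 25.8% higher and 23.9% lower over all genes tested. The closest windows in Mapt and Map4 had 7 and 6 mismatches.
Mapt window: tggaAgGgtTaCTattgGCagt
Map4 window: AggaGAtgtCaaGattgaAagt
The first lies in the 3′ UTR and the second in coding sequence.

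Across the genome many small differences passed the test and few were large. Of 11554 genes tested, 5745 (49.7%) had an adjusted p under 0.05 in limma, 2986 (25.8%) higher with Map2 crRNA 1 and 2759 (23.9%) lower. With at least a 2-fold difference as well, 173 genes (1.50%) changed, 30 higher (0.260%) and 143 lower (1.24%). The 30 were 17 named genes, 2 predicted genes and 11 short RNA genes, and the 143 were 111, 23 and 9. Over all genes tested, the crRNA 1 and NT libraries did not overlap in 28.6% with crRNA 1 higher and in 26.3% with it lower. Genes that fell had a median of 1.45 FPKM with crRNA 1 and 4.58 FPKM in NT, and those that rose 9.50 FPKM and 3.29 FPKM. In 80 of the 143 and 8 of the 30 the higher group averaged under 5 FPKM, so the counts depend on how low genes are treated: with a mean FPKM of at least 5 they were 18 higher and 49 lower. Short genes tended to be lower, since among the 2295 shortest genes (up to 2317 bases) 15.4% were higher and 25.8% lower, and among the 2295 longest 34.0% and 13.3%. The part of length in single results was not tested beyond the medians given with the trend removed.

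The 2 NT sets carry the same crRNA, yet NT of the N set differed from NT of the WT set in 5358 genes (46.4%), 130 of them (1.13%) at least 2-fold. Library names of the N set were all LDL, and set and handling cannot be told apart. Against all 6 NT libraries 67 genes were higher and 254 lower. Of the 30 genes at least 2-fold higher than NT of the WT set, 21 had all crRNA 1 libraries above all N-set NT libraries. Of the 143 lower ones, 136 had all crRNA 1 libraries below them.

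**Figure D2:**
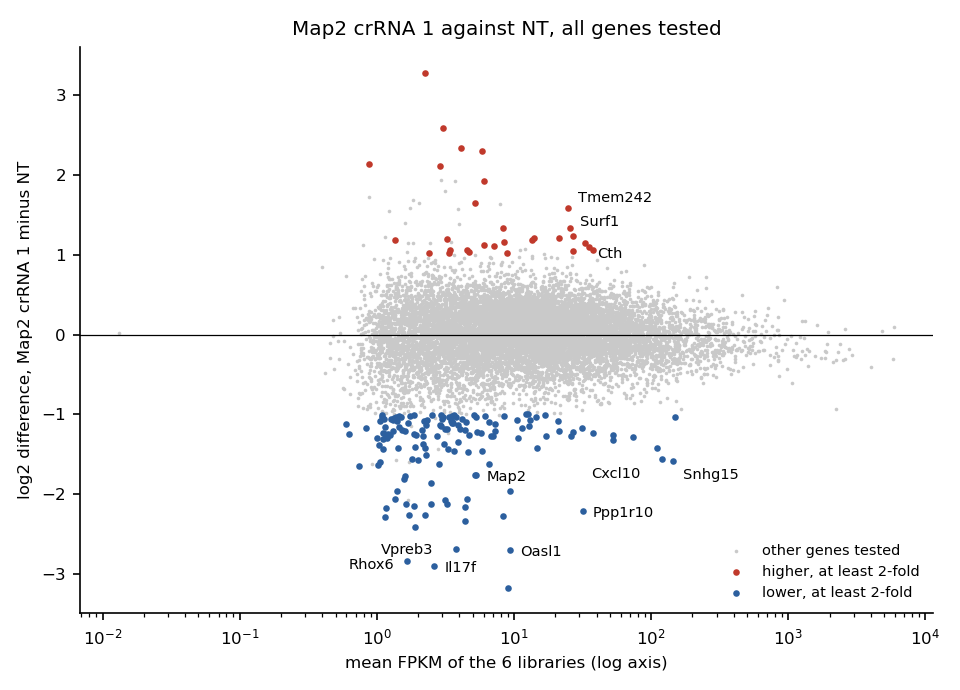
Log2 difference with Map2 crRNA 1 minus NT (log2(FPKM + 0.5) scale) for the 11554 genes tested, against mean FPKM on a log axis. The 143 genes past the test and at least 2-fold lower outnumber the 30 higher, and most of them lie at low levels.

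Of the 12 leading genes that rose, Tmem242, Surf1 and Dlat differed most. Tmem242, which encodes a membrane protein, had 35.8, 32.8 and 42.7 FPKM with crRNA 1 against 9.08, 14 and 13.4 FPKM in NT (1.58, SE 0.105, adjusted p = 2.57e-11). Surf1, whose product helps to assemble cytochrome c oxidase, had 35.6, 38.0 and 36.5 FPKM against 14.02, 14.3 and 14.3 FPKM (1.34, SE 0.0664, adjusted p = 1.41e-13). Dlat, the acetyltransferase subunit of pyruvate dehydrogenase, had 38.9, 39.0 and 37.1 FPKM against 15.2, 16.5 and 16.1 FPKM (1.24, SE 0.0463, adjusted p = 1.05e-15). In all 3 genes the lowest crRNA 1 library was over 2-fold above the highest NT library.

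The small heat shock gene Hspb2 (1.20), the receptor-sorting gene Gprasp2 (1.21), the carboxypeptidase gene Cpd (1.16) and Tmlhe (1.13), which encodes the first enzyme of carnitine synthesis, rose by similar amounts. Ptgs1, the constitutive cyclooxygenase gene, had 49.5, 46.8 and 47.1 FPKM against 22.3, 20.9 and 23.2 FPKM (1.09). Atp1b2, a beta subunit gene of the sodium pump, the thioredoxin-like gene Tmx4 and the matricellular gene Ccn1 each rose by 1.06. Cth, which encodes the enzyme that makes cysteine from cystathionine, had 45.8, 43.8 and 46.7 FPKM against 20.8, 20.2 and 19.8 FPKM (1.14, SE 0.0683, adjusted p = 3.27e-12). With the other 6 crRNAs the group means of Cth ran from 19.6 to 32.5 FPKM, from the NT level upward. Surf1 averaged 27.6 to 30.5 FPKM and Dlat 30.6 to 32.9 FPKM with the other crRNAs, above NT as well. In 11 of the 12 leading genes that rose, all 6 of these group means lay above NT.

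Of the 12 leading genes that fell, Il17f, Oasl1 and Ppp1r10 are given in full. In all 12, the group means of the other 6 crRNAs of the WT set lay below NT as well. Il17f averaged 0.52 to 1.01 FPKM with those crRNAs and Oasl1 2.89 to 5.86 FPKM. Il17f, an interleukin gene of T helper cells, had 0.204, 0.179 and 0.302 FPKM with crRNA 1 against 5.33, 3.94 and 5.64 FPKM in NT (−2.90, SE 0.246, adjusted p = 1.54e-09). Oasl1, an oligoadenylate synthetase-like gene that interferon induces, had 2.35, 1.98 and 2.07 FPKM against 17.3, 15.7 and 16.6 FPKM (−2.70, SE 0.116, adjusted p = 1.77e-14). Ppp1r10, which encodes the nuclear phosphatase regulator PNUTS, had 10.8, 10.8 and 11.2 FPKM against 51.3, 52.3 and 53.4 FPKM (−2.21, SE 0.0568, adjusted p = 1.04e-18). The 12 were chosen among genes without overlap. Of Il17f, Oasl1 and Ppp1r10, the last had the smallest SE.

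Rhox6, an X-linked homeobox gene, was at 0.0694, 0 and 0 FPKM against 3.18, 2.45 and 4.31 FPKM (−2.84), Lgals3, the galectin-3 gene, was lower by −2.41 and Vpreb3, a gene of B cell precursors, by −2.69. Pygm, the muscle glycogen phosphorylase gene, had 1.23, 1.25 and 0.888 FPKM against 7.33, 8.00 and 7.59 FPKM (−2.33). Atp6v1e2, a testis form of a proton pump subunit (−2.26), Ly6g6c (−2.17), the apolipoprotein L gene Apol9b (−2.16), the epithelial cytokine gene Il17c (−2.15) and the interferon-induced gene Ifit1 (−2.12) completed the 12. In NT of the N set Il17f averaged 15.0 ± 0.645 FPKM and Ppp1r10 113 ± 10.5 FPKM (SD, n = 3), further from crRNA 1 than NT of the WT set. Oasl1 averaged 14.76 ± 1.965 FPKM there, nearer to crRNA 1.

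**Figure D3:**
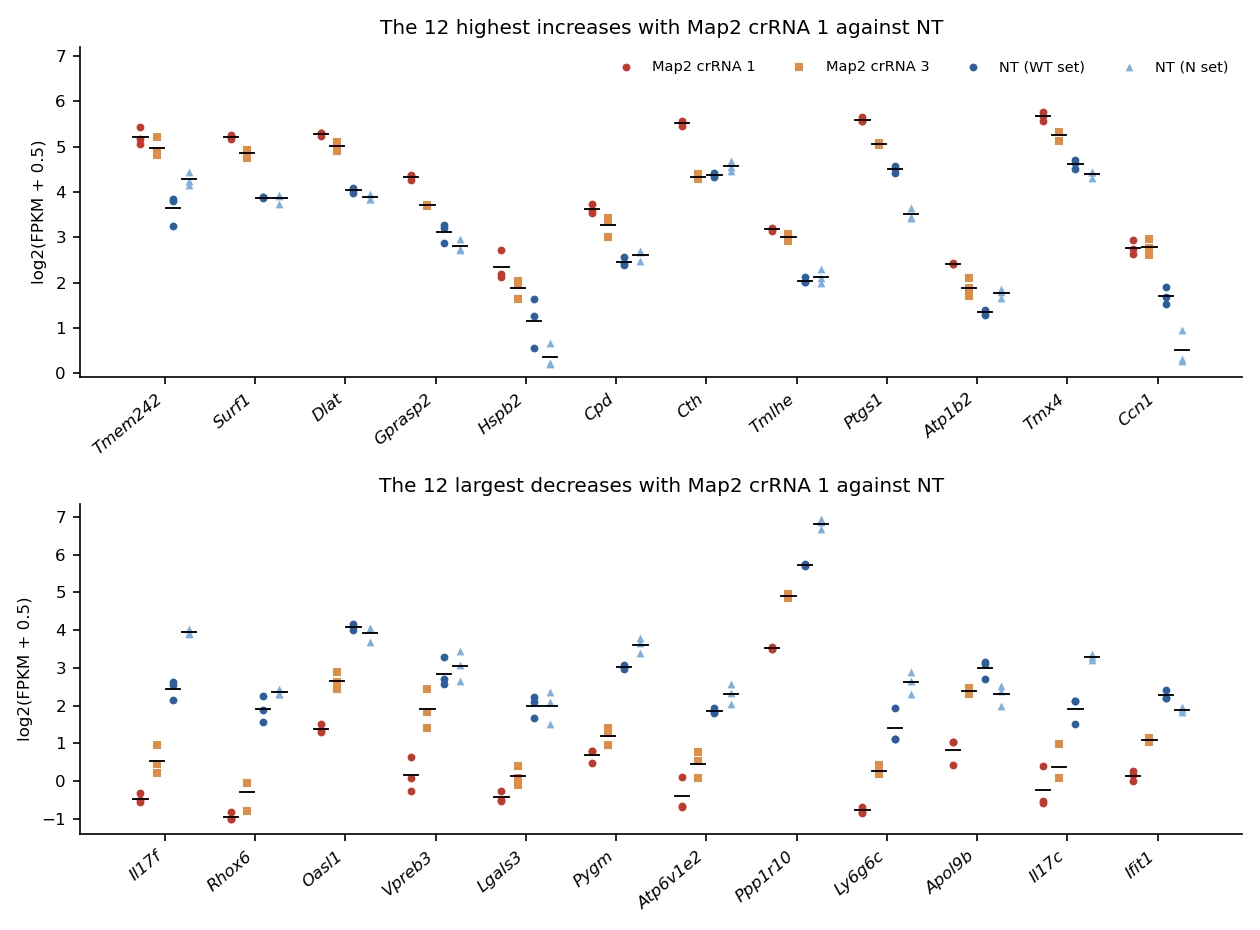
Levels (log2(FPKM + 0.5)) of the 12 named genes with the largest increase (upper rows) and the 12 with the largest decrease (lower rows) with Map2 crRNA 1 against NT, points for libraries and bars for group means, with Map2 crRNA 3, NT of the WT set and NT of the N set beside it. The genes were chosen so that the 3 Map2 crRNA 1 points lie on one side of the 3 NT points of the WT set, as with Ppp1r10 at 10.8 to 11.2 against 51.3 to 53.4 FPKM.

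Short RNA genes gave large fitted values on few reads. Mir6960 had 2.95, 5.75 and 4.86 FPKM with crRNA 1 and was listed at 0 in the 3 NT libraries. Scarna8, a small Cajal body RNA gene, had 8.14, 4.76 and 3.01 FPKM against 2.39, 0 and 0 FPKM (2.60, adjusted p = 0.0304), and Mir1938 had 6.60, 5.62 and 7.70 FPKM against 0.706, 0 and 4.05 FPKM (2.34, adjusted p = 0.0169). Vaultrc5, a vault RNA gene, had 2.44, 5.09 and 1.03 FPKM against 12.1, 17.9 and 11.7 FPKM (−2.27, adjusted p = 6.75e-07). Snord66 (−2.26, adjusted p = 0.0315) and Snord13 (−1.87, adjusted p = 0.0108) were the next lower ones. Leaving out single libraries ended the calls of Scarna8, Mir1938, Snord66 and Snord13.

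Interferon-stimulated genes, which encode antiviral effectors induced by interferon, were mostly lower with Map2 crRNA 1. Of 39 measured, 23 fell, 1 rose and 15 did not pass, with a median of −0.36, beside 25.8% higher, 23.9% lower and a median of 0.018 over all genes tested, and 10 of the 23 fell at least 2-fold. Ifit1, which binds foreign RNA caps, had 0.705, 0.505 and 0.629 FPKM with crRNA 1 against 4.09, 4.12 and 4.85 FPKM in NT. Gbp3, a guanylate-binding protein gene, had 0.923, 0.787 and 1.01 FPKM against 5.22, 4.99 and 6.05 FPKM (−2.07, adjusted p = 1.03e-11). Gbp3 did not overlap between the groups, and Ifit1 was one of the leading genes, which were chosen without overlap.

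Rsad2 (−2.06), which encodes viperin, the chemokine genes Ccl5 (−1.77) and Cxcl10 (−1.56), Oasl2 (−1.44), the ubiquitin-like modifier gene Isg15 (−1.32), the immunity-related GTPase gene Irgm1 (−1.27) and Mx2 (−1.01) made up the remainder of the 10 with Oasl1, Ifit1 and Gbp3. With a mean FPKM of at least 5 the list's median was −0.21. In the library medians over the 39 genes, relative to the NT mean, Map2 crRNA 1 had −0.43, −0.44 and −0.28, the other 6 crRNAs −0.12 to −0.39 and NT of the N set −0.12 to −0.21. Immune cell markers, given above, were also a little lower in sum with crRNA 1 and under 2 FPKM in both groups, and their part was not tested.

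Genes upstream of that response did not move as a group. Of 22 nucleic acid sensors and their signalling genes, 3 rose and 5 fell (median 0.07), beside 25.8% higher and 23.9% lower over all genes tested. Sting1, the adaptor of cytosolic DNA sensing, had 6.26, 5.03 and 5.54 FPKM with crRNA 1 against 9.93, 10.6 and 12.04 FPKM in NT (−0.89, adjusted p = 4.19e-06), and the adaptor gene Myd88 (−0.67) and the death-domain kinase gene Ripk1 (−0.63) fell. The interferon receptor genes Ifngr2 (0.38), Ifnar2 (0.26) and Ifnar1 (0.21) rose, with the call of Ifnar2 depending on single libraries. Among 17 NF-kB targets and chemokines 3 rose and 6 fell (median −0.13, and −0.03 without Map2 crRNA 1 replicate 2 or without NT replicate 2): Csf1, the macrophage colony-stimulating factor gene, had 3.98, 4.16 and 3.66 FPKM against 7.23, 9.13 and 7.77 FPKM (−0.94), while the NF-kB inhibitor gene Nfkbia rose (0.26).

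Genes for making and taking up cholesterol were higher with Map2 crRNA 1. SREBP transcription factors switch these genes on when sterols in the endoplasmic reticulum run low. Of 27 measured, 20 rose, 1 fell and 6 did not pass (median 0.38), beside 25.8% higher and 23.9% lower over all genes tested. The 20 and the 1 were the same counts whichever replicate was left out. Msmo1, a sterol demethylation enzyme gene, had 79.5, 82.4 and 89.2 FPKM against 48.2, 50.4 and 45.3 FPKM (0.80, SE 0.0574, adjusted p = 9.73e-11). Its libraries were well separated from NT.

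Tm7sf2 (0.73), a sterol reductase gene, Stard4 (0.67), a sterol carrier, Hmgcs1 (0.66), which feeds the mevalonate pathway, Ebp (0.64) and Idi1 (0.58), which encode isomerases of the pathway, rose as well. Of 17 fatty acid synthesis genes 10 rose and 1 fell (median 0.30), beside the same 25.8% and 23.9% of all genes tested. Fads1, a fatty acid desaturase gene, had 75.8, 78.6 and 74.9 FPKM against 43.6, 44.0 and 44.8 FPKM (0.79, adjusted p = 7.63e-14), the acetyl-CoA synthetase gene Acss2 was higher by 0.64, and Srebf1, which encodes SREBP1, by 0.61. Elovl1, a fatty acid elongase gene, fell (−0.37).

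The order of groups for cholesterol genes did not follow the targeted transcript. In library medians over the 27 genes relative to NT, Map2 crRNA 1 had 0.35, 0.37 and 0.39, beside 0.34 to 0.38 with Sik3 crRNA 1, 0.22 to 0.24 with Sik3 crRNA 8 and 0.15 to 0.20 with Mapt crRNA 4. Map2 crRNA 3 stood at the other end, with −0.18 in each library. Msmo1 had the same ends, at 83.7 ± 4.94 FPKM with Map2 crRNA 1, 71.8 ± 4.73 FPKM with Sik3 crRNA 1, 33.1 ± 1.03 FPKM with Map2 crRNA 3 and 47.9 ± 2.52 FPKM in NT (SD, n = 3). None of these 4 groups overlapped with the next in Msmo1.

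**Figure D4:**
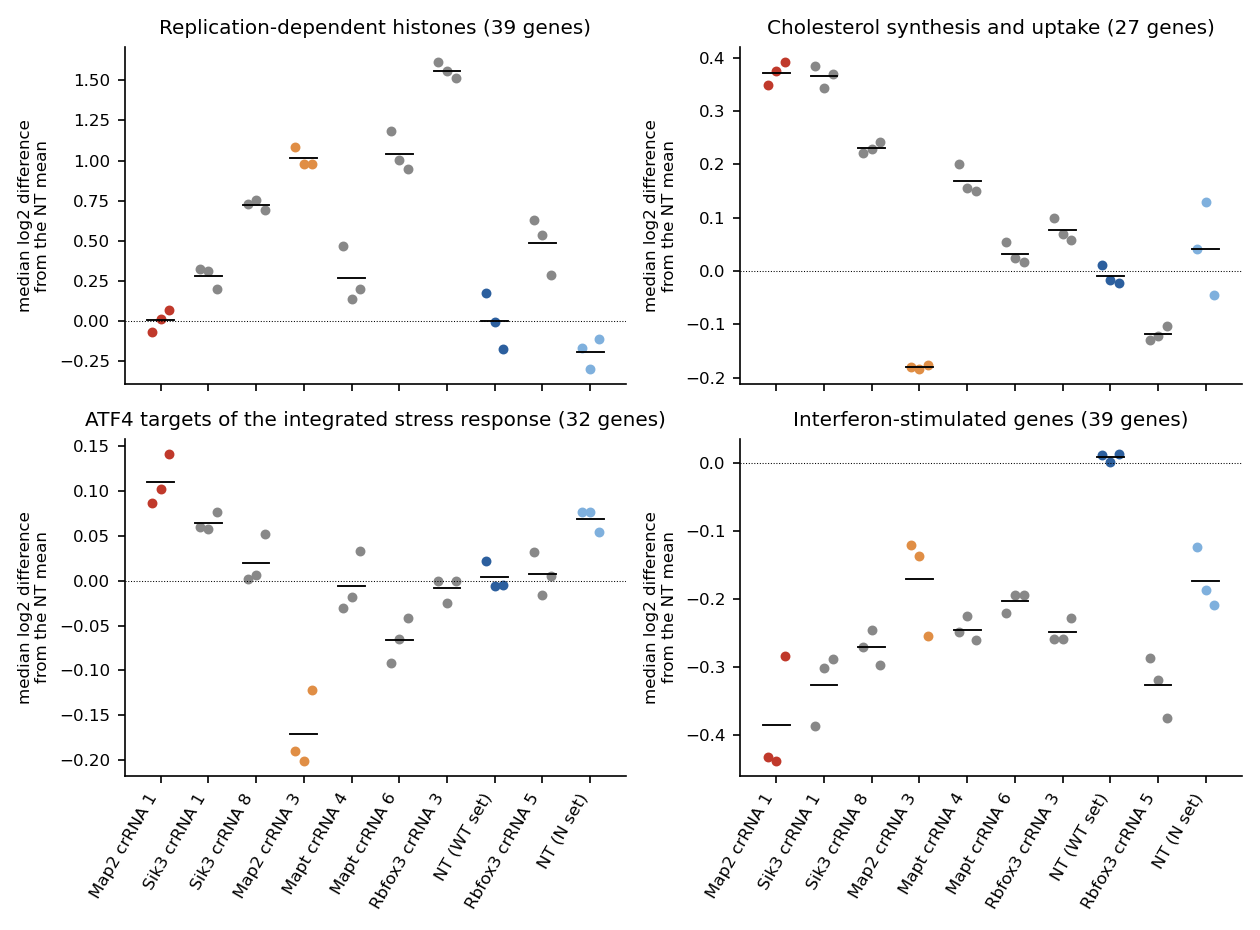
Median over the members of 4 gene lists of each library's log2 difference from the NT mean, for the 10 groups of WT cells, points for libraries. With Map2 crRNA 1 the cholesterol list lies at 0.35 to 0.39 and the histone list at −0.07 to 0.07, while with Map2 crRNA 3 they lie at −0.18 and at 0.98 to 1.09.

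ATF4 targets, which amino acid shortage and endoplasmic reticulum stress switch on, went both ways against NT, with 16 of 32 higher and 6 lower (median 0.11). The shares over all genes tested were 25.8% higher and 23.9% lower. Aldh1l2, a mitochondrial folate enzyme gene, had 27.0, 29.3 and 25.7 FPKM with crRNA 1 against 13.3, 15.1 and 13.2 FPKM in NT (0.96, adjusted p = 8.65e-11). The glutathione-degrading enzyme gene Chac1 rose too (0.60), and with Cth these were the leading members. Ppp1r15a, the stress phosphatase subunit GADD34, had 61.0, 65.4 and 71.7 FPKM against 111, 111 and 116 FPKM (−0.77, adjusted p = 4.79e-13), and the transcription factor genes Atf3 (−0.69) and Atf5 (−0.68) also fell. Of 20 cytosolic aminoacyl-tRNA synthetase genes 8 rose and 6 fell (median 0.01): Iars had 72.5, 77.3 and 66.1 FPKM against 52.8, 58.6 and 53.6 FPKM (0.38), and Hars was lower (−0.34).

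Microtubule and neuronal genes were higher more often than lower against NT, beside 25.8% higher and 23.9% lower over all genes tested. Both lists hold long genes, with median lengths of 6085 and 6791 bases, and of all genes tested with lengths of 5154 to 7517 bases 31.0% were higher and 22.5% lower. Of 47 microtubule-associated protein and tubulin genes 18 rose, 7 fell (Map2 included) and 22 did not pass. Their median was 0.10, and 0.06 with the length trend removed. Against the mean of the other 6 crRNAs, 8 of them were higher and 3 lower (median 0.003). In that comparison 13.0% of all genes tested were higher and 18.5% lower. Map7d2, a kinesin-recruiting microtubule protein gene, had 61.3, 63.3 and 59.1 FPKM with crRNA 1 against 33.0, 34.3 and 34.7 FPKM in NT (0.84, SE 0.0448, adjusted p = 4.93e-13). Map1a (0.45) and the stabilizing gene Map6 (0.45), the tubulin genes Tuba8 (0.53), Tubb5 (0.43) and Tubb2b (0.35), and the plus-end protein genes Mapre3 (0.35) and Clasp2 (0.36) rose. Stmn4, a microtubule-destabilizing stathmin gene, had 83.6, 83.0 and 82.0 FPKM against 130, 128 and 137 FPKM (−0.67, adjusted p = 3.33e-10). The severing enzyme gene Spast (−0.27) and the collapsin response mediator gene Crmp1 (−0.19) fell by less.

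Abundant members went different ways. Tuba1a was at 875, 859 and 822 FPKM against 838, 830 and 790 FPKM (0.06, adjusted p = 0.427) and did not pass, nor did Map1b at 144, 154 and 116 FPKM against 151, 180 and 144 FPKM (−0.20, adjusted p = 0.225), the libraries overlapping in both. Stmn2, another stathmin gene, rose, at 173, 162 and 178 FPKM against 139, 136 and 146 FPKM (0.29, adjusted p = 4.55e-05). Tubb3, the neuronal beta-tubulin gene, fell (−0.17, adjusted p = 0.000511), but against all 6 NT libraries the difference was 0.09. Of 18 protein kinase A subunit and anchor genes 5 rose and 1 fell (median 0.07, and −0.03 with the length trend removed). The 5 that rose are near the 25.8% higher of all genes tested, of which 23.9% were lower. Prkar2b, the regulatory subunit that MAP2 anchors in neurons, had 16.9, 17.1 and 16.8 FPKM against 11.1, 9.86 and 10.5 FPKM (0.67, adjusted p = 9.54e-08), whereas Prkar2a, its relative, fell (−0.40).

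Of 37 neuronal cytoskeleton, growth and synapse genes 19 rose, 5 fell and 13 did not pass, beside 25.8% higher and 23.9% lower over all genes tested. Their median was 0.18, with 0.15 once the length trend was removed and 0.06 with no filter on low values. Against the mean of the other 6 crRNAs, 10 were higher and 5 lower (median 0.06), beside 13.0% and 18.5% of all genes tested. Syn2, a synaptic vesicle phosphoprotein gene, had 24.4, 23.6 and 23.6 FPKM with crRNA 1 against 14.3, 13.6 and 13.3 FPKM in NT (0.78, adjusted p = 2.84e-12), and the vesicle protein gene Sv2a (0.63) rose. Of the intermediate filament genes, Ina had 17.9, 18.8 and 17.7 FPKM against 33.0, 33.2 and 29.8 FPKM (−0.80, adjusted p = 4.79e-13) and Nefh 27.0, 28.0 and 30.2 FPKM against 51.3, 47.9 and 48.8 FPKM (−0.79, adjusted p = 1.23e-12). Neither overlapped with NT. Prph, the peripherin gene, had 809, 807 and 913 FPKM against 829, 764 and 831 FPKM and did not pass (0.06, adjusted p = 0.276), and Nefl and Nefm were at most 0.176 and 0.123 FPKM. The guidance receptor gene Nrp1 also fell (−0.56). The targets of the other crRNAs were measured as well: Sik3 did not pass (8.62, 8.38 and 8.48 FPKM against 7.37, 9.04 and 7.53 FPKM), and Rbfox3 was at most 0.0244 FPKM in these 6 libraries.

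**Figure D5:**
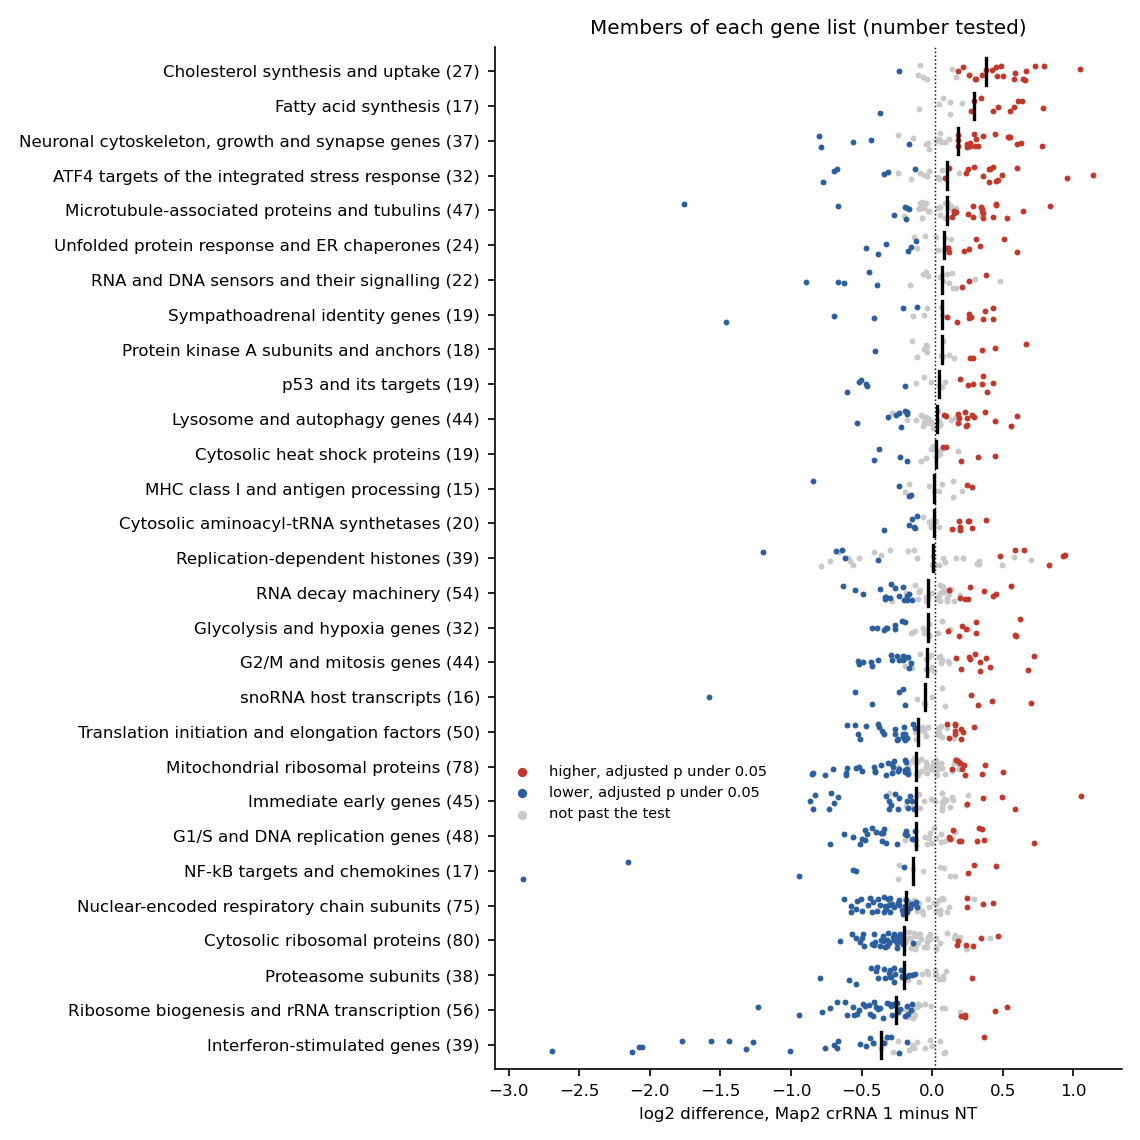
Log2 difference with Map2 crRNA 1 minus NT of each tested member of 29 gene lists, with the list median as a tick and the median of all genes as a dotted line. The cholesterol list has its median at 0.38 and the interferon-stimulated list at −0.36, and members of most other lists lie on both sides of 0.

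Growth-related lists were lower more often than higher, beside 25.8% higher and 23.9% lower over all genes tested. Library medians relative to NT were also below 0 on average with the other 6 crRNAs of the WT set, for the 2 such lists read there. Ribosome biogenesis averaged −0.08 to −0.21, against −0.25 with Map2 crRNA 1. Respiratory chain genes averaged −0.03 to −0.21, against −0.18. NT of the N set averaged 0.14 and 0.16. Of 56 ribosome biogenesis genes 35 fell and 5 rose (median −0.26). Imp4, a small-subunit processing factor gene, had 23.3, 22.1 and 21.5 FPKM with crRNA 1 against 53.2, 53.7 and 52.1 FPKM in NT (−1.23, adjusted p = 1.01e-13), and Ubtf, the rRNA gene activator, 21.2, 21.4 and 21.1 FPKM against 40.2, 41.0 and 42.5 FPKM (−0.94, adjusted p = 2.15e-14). Among 80 cytosolic ribosomal protein genes 33 fell and 6 rose (median −0.20, and −0.15 with the length trend removed), with Rpl13 lower (−0.65) and Rpl22l1 higher (0.47). Among 78 mitochondrial ribosomal protein genes 29 fell and 10 rose (−0.11, and −0.07 with the length trend removed), beside 31.7% lower and 22.3% higher among all genes of 2317 to 3614 bases, where their median length lies, led by Mrps2 (−0.85) and Mrpl12 (−0.85). Among 75 nuclear-encoded respiratory chain genes 40 fell and 4 rose (−0.19, and −0.14 with the length trend removed), among them Ndufa2 (−0.58), while Sdha, a complex II subunit gene, rose (0.43). Among 38 proteasome subunit genes 24 fell and 1 rose (−0.20, and −0.09 against all 6 NT libraries): Psmc4 had 92.7, 95.5 and 98.7 FPKM against 172, 161 and 165 FPKM (−0.79), and the activator gene Psme4 rose (0.28).

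Cell cycle genes were split, beside 25.8% higher and 23.9% lower over all genes tested. Only the higher genes of the G2/M and G1/S lists lay near the share of all genes. Of 48 G1/S genes 22 fell and 10 rose (median −0.11), the licensing factor gene Cdc6 (14.03, 12.6 and 12.8 FPKM against 21.8, 22.8 and 21.7 FPKM, −0.73) and the helicase gene Mcm7 (−0.62) being lower and the retinoblastoma gene Rb1 higher (0.72). Of 44 G2/M genes 16 fell and 11 rose (−0.04). Top2a, the DNA topoisomerase of dividing cells, had 321, 321 and 304 FPKM with crRNA 1 against 187, 198 and 186 FPKM in NT (0.73, adjusted p = 3.72e-11), and the mitotic kinesin gene Kif20a fell (−0.52). Immediate early genes fell in 19 of 45 and rose in 5 (−0.11): Klf10 had 34.6, 33.0 and 36.0 FPKM against 62.3, 61.2 and 63.4 FPKM (−0.84), and the growth arrest gene Gadd45g (−0.86) and the nuclear factor gene Csrnp1 (−0.83) fell, while the zinc finger gene Egr1 had 122, 113 and 115 FPKM against 78.4, 75.1 and 79.1 FPKM (0.59).

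Replication-dependent histone genes, whose products wrap DNA as it is copied, were not moved in one direction against NT. Of 39 measured, 6 rose, 5 fell and 28 did not pass (median 0.008), beside 25.8% higher and 23.9% lower over all genes tested. H4c14 had 12.8, 17.4 and 12.8 FPKM with crRNA 1 against 9.74, 7.08 and 6.75 FPKM in NT (0.83, adjusted p = 3.18e-05), and H2bc13 had 1.27, 0.594 and 1.50 FPKM against 3.73, 3.08 and 2.57 FPKM (−1.20, adjusted p = 0.000331). Single histone genes are uncertain, because reads of near-identical copies can be split among them, and the sign of the small median changed with several settings.

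A direct comparison of the 2 crRNAs against Map2 asked what depends on the spacer when the target is the same. Between Map2 crRNA 1 and Map2 crRNA 3, whose sites lie 36 bases apart, 4141 genes (35.8%) passed adjusted p under 0.05, 1681 (14.5%) higher with crRNA 1 and 2460 (21.3%) lower, and 114 (0.987%) differed at least 2-fold, 15 higher (0.130%) and 99 lower (0.857%). Both comparisons share the crRNA 1 libraries, so their values are given side by side. Histone genes were the clearest group: 33 of 39 were lower with crRNA 1 and 0 higher (median −1.17), and 25 of them were among the 99 genes at least 2-fold lower. With any 1 library of either crRNA left out, 25 to 29 were lower and the median was −1.07 to −1.21.

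H4c14 was at 12.8, 17.4 and 12.8 FPKM with crRNA 1 against 54.0, 58.9 and 48.0 FPKM with crRNA 3 (crRNA 1 minus crRNA 3 −1.88, adjusted p = 5.36e-10). H3c11 had 2.98, 7.85 and 6.50 FPKM against 22.7, 16.4 and 17.6 FPKM (−1.71), and H2ac13 0.670, 1.72 and 1.32 FPKM against 4.93, 4.84 and 4.37 FPKM (−1.63). These genes were chosen among those in which no crRNA 1 library reached the lowest crRNA 3 library. In library medians over the histone list relative to NT, Map2 crRNA 1 had −0.07, 0.01 and 0.07, and the other crRNAs of the WT set ranged upward from 0.14 with a library of Mapt crRNA 4 to 1.61 with one of Rbfox3 crRNA 3.

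Outside the histones, F12, the gene of coagulation factor XII, had 65.5, 70.2 and 44.0 FPKM with crRNA 1 against 258, 247 and 168 FPKM with crRNA 3 (−1.90, adjusted p = 6.88e-07) and 183, 192 and 112 FPKM in NT (−1.42, adjusted p = 1.36e-05). Its LDL library was the lowest in each of these groups. Within series LDK its difference from NT was −1.46 and within LDL −1.33. A low F12 average was not particular to Map2 crRNA 1. Group means were 73.0 FPKM with Sik3 crRNA 1, 96.5 FPKM with Sik3 crRNA 8 and 117.5 FPKM with Mapt crRNA 4, below 162.0 FPKM in NT. Mapt crRNA 6 and Rbfox3 crRNA 3 averaged 206.4 and 259.0 FPKM, above NT. The forebrain homeobox gene Dlx2 had 2.40, 2.55 and 2.61 FPKM with crRNA 1, against 9.08, 10.2 and 9.67 FPKM with crRNA 3 (−1.75) and 7.02, 6.06 and 4.55 FPKM in NT (−1.06). Vpreb3 had 1.06, 0.337 and 0.569 FPKM against 3.08, 2.17 and 4.97 FPKM with crRNA 3 (−1.74).

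Among the named genes higher with crRNA 1 than with crRNA 3, lipid and amino acid genes led. Over all genes tested, 14.5% were higher and 21.3% lower in this comparison. Of the 27 cholesterol genes 20 were higher and 0 lower (median 0.59), with Msmo1 at 79.5, 82.4 and 89.2 FPKM against 32.7, 32.4 and 34.3 FPKM with crRNA 3 (1.32, adjusted p = 7.99e-14). Insig1, which holds SREBP in the endoplasmic reticulum, differed by 1.09, at 60.7, 62.2 and 60.5 FPKM against 31.7, 26.8 and 26.8 FPKM. Among fatty acid genes 12 of 17 were higher and 0 lower (0.26), among ATF4 targets 20 of 32 higher and 2 lower (0.29), and among tRNA synthetases 15 of 20 higher and 2 lower (0.20).

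Cth had 45.8, 43.8 and 46.7 FPKM with crRNA 1 against 19.4, 18.9 and 20.5 FPKM with crRNA 3 (1.19, adjusted p = 5.57e-12), the level of crRNA 3 overlapping NT. Ddit3, the stress factor gene CHOP, had 608, 626 and 662 FPKM against 326, 315 and 348 FPKM with crRNA 3 (0.94) and 534, 490 and 520 FPKM in NT (0.30). Trim66, a chromatin reader gene of male germ cells, differed by 0.95 (3.59, 3.95 and 3.27 FPKM against 1.91, 1.85 and 1.20 FPKM). Against all 6 NT libraries Insig1 and Trim66 no longer passed, although their differences from crRNA 3 do not use NT. Interferon-stimulated genes were lower with crRNA 1 than with crRNA 3 in 16 of 39 and higher in 0 (−0.29), Oasl1 having 6.96, 4.95 and 5.68 FPKM with crRNA 3 (−1.26, adjusted p = 1.40e-08).

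Set against the mean of the other 6 crRNAs, which carries the shared distance from NT, 3638 genes (31.5%) passed, 1497 (13.0%) higher with Map2 crRNA 1 and 2141 (18.5%) lower, and 45 (0.389%) differed at least 2-fold, 2 higher (0.0173%) and 43 lower (0.372%). The 2 higher were microRNA genes, named after their values were seen: Mir6941 (1.19, mean 18.8 FPKM with crRNA 1) and Mir5121 (1.39, mean 2.79 FPKM). Of the leading genes against NT, Ppp1r10 was lower here as well, by −1.14 (adjusted p = 4.13e-15), its other group means running from 17.6 to 35.0 FPKM, and Cth was higher by 0.77 (adjusted p = 2.20e-10).

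Mapt (0.99) and Sik3 (0.79) also led the higher genes, but the mean of the other 6 includes the crRNAs that target them. Msmo1 (0.72), the DNA repair gene Rad51b (0.63) and the noncoding gene Ino80dos (0.59, with levels of 1.56, 1.52 and 1.78 FPKM) followed. Lower genes were H2ac13 (−1.44), H4c4 (−1.27), Dlx2 (−1.13), the proopiomelanocortin gene Pomc (5.93, 6.83 and 9.21 FPKM with crRNA 1 against other means of 10.5 to 23.9 FPKM, −1.07) and the zinc finger gene Zfp786 (−1.01). By list, 30 of 39 histone genes were lower and 0 higher (median −0.89), 19 of 27 cholesterol genes higher and 0 lower (0.26), 20 of 32 ATF4 targets higher and 3 lower (0.15), 14 of 20 tRNA synthetases higher and 2 lower (0.09), and 13 of 39 interferon-stimulated genes lower and 0 higher (−0.17).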

How the data were processed

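The authors trimmed paired reads with FastQC and Trim Galore, used Subread for alignment to mm10 and featureCounts for gene counts, and deposited FPKM; tool versions, annotation and strand setting were not given in the sources used here, so overlapping genes cannot be told apart. Libraries were made from Trizol RNA with the VAHTS mRNA-seq v2 kit. Of 25239 genes, the 11554 with a mean of at least 1 FPKM over the 30 WT libraries (plus the targets) were fitted as log2(FPKM + 0.5) in limma 3.58.1 (R 4.3.3; 10 groups, library series as covariate, trend), with Benjamini-Hochberg adjustment over all of them; differences in log2 are on this scale, which understates low genes. "Rose", "fell" and "passed" mean adjusted p under 0.05 against NT; "changed" adds a 2-fold difference. Reads per library, 10405722 to 16874763 over the WT libraries, were estimated from FPKM steps, with 95.0% to 98.0% of low values within 0.02 of a whole read. The code was tested on simulated data.

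Named genes were Map2, the other targets, Map4, the 12 largest changes each way without overlap (predicted and short RNA genes passed over), the 3 largest short RNA genes each way, up to 3 members each way per list (any member of the microtubule and marker lists), the 6 largest each way between crRNAs, and genes with the closest sites; list members beyond these were named after their values were seen. The 6 largest each way between crRNAs were also taken without overlap of the libraries compared. Members and lists were chosen with earlier results of these data known. Alternatives are given in the closing section. Some members of the lists are counted but not reported by name here.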

Additional observations from a re-analysis of the deposited data

Results flagged for a closer look

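For 11 genes the effect of Map2 crRNA 1 differed from that of Map2 crRNA 3, which targets the same mRNA, by the direct limma test between them (adjusted p under 0.05, from the 6 largest each way among named genes). In log2, crRNA 1 minus crRNA 3, Cth differed by 1.19, Msmo1 by 1.32, Insig1 by 1.095, Trim66 by 0.95 and Ddit3 by 0.94. The lower ones were F12 at −1.90, H4c14 at −1.88, Dlx2 at −1.75, Vpreb3 at −1.74, H3c11 at −1.71 and H2ac13 at −1.63. No cause was tested.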

How the results depend on the processing

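Against NT, the 143 lower and 30 higher genes became 254 and 67 with all 6 NT libraries. Requiring a mean FPKM of at least 5 left 49 and 18. The lower count was 85 with a pseudocount of 1, and the higher count 55 with 0.1. Leaving out 1 replicate gave 133 to 145 lower and 31 to 37 higher. Against crRNA 3, the 99 lower genes became 51 (mean FPKM of at least 5) and 163 (pseudocount 0.1), and the 15 higher became 9 (mean FPKM of at least 5) and 9 to 20 with 1 replicate left out, the 9 being without Map2 crRNA 1 replicate 2. Against the other 6 crRNAs, the 43 lower became 24 and 81 under those settings, and the 2 higher became 1 (mean FPKM of at least 5), 6 (no filter) and 1 to 2 with 1 replicate left out, 1 without Map2 crRNA 1 replicate 2. Leaving out Map2 crRNA 3 replicates was chosen after seeing the data. Tubb3 reversed to 0.087 with all 6 NT libraries (adjusted p = 0.479). The causes were not tested.

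Libraries of crRNA 1 and NT matched by series and by order within it correlated at 0.0377 to 0.221. Each library correlated best with its own match, though weakly, and the labels do not state a pairing. With a replicate block, 30 and 143 genes changed, Map2 differed by −1.76, and 3071 higher and 2748 lower genes passed. Over 249 single-gene results, 3568 values kept direction and side of the threshold, 138 lost the call (39 genes) and 1 reversed. Removing the length trend changed the sign of the medians for protein kinase A genes, histones and snoRNA hosts. Medians with all 6 NT libraries were −0.12 for sympathoadrenal genes and −0.03 for MHC genes, and NF-kB targets had 0.07 with a mean FPKM of at least 5. Depth limits genes under a few FPKM.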

Other observations

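Stress and protein-folding genes went both ways with Map2 crRNA 1 against NT, where 25.8% of all genes tested rose and 23.9% fell. Of 24 unfolded protein response and chaperone genes of the endoplasmic reticulum 10 rose and 6 fell (median 0.09, and −0.0035 against all 6 NT libraries): Hspa5, the chaperone BiP, was higher (0.60, adjusted p = 1.20e-12 in limma) and Calr, the chaperone calreticulin, lower (−0.38, adjusted p = 7.37e-10). Of 19 cytosolic heat shock genes 5 rose, such as Hspa8 (0.44), and 4 fell, such as Bag3 (−0.41), which are shares near those of all genes. Of 19 p53 genes 7 rose and 6 fell, with Trp53 itself at 63.6, 61.7 and 64.2 FPKM against 86.8, 92.2 and 91.0 FPKM (−0.51) and the apoptosis gene Bax lower (−0.52).

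Of 19 sympathoadrenal identity genes 9 rose and 5 fell, beside 25.8% and 23.9% of all genes tested. Hand2, a transcription factor gene of this lineage, rose (0.43), while Ddc, which makes dopamine, had 2.93, 3.29 and 2.47 FPKM with crRNA 1 against 9.25, 8.89 and 8.30 FPKM in NT (−1.46, adjusted p = 3.16e-09) and Gata3 fell (−0.70). Of 16 snoRNA host transcripts 4 rose and 6 fell, Snhg15 having 71.7, 65.2 and 79.6 FPKM against 222, 206 and 220 FPKM (−1.58, adjusted p = 1.60e-13). Among 50 translation factor genes 23 fell and 10 rose, with Eif6 lower (−0.60). Among 54 RNA decay genes 17 fell and 9 rose, with the exosome gene Exosc2 lower (−0.63). Lysosome and autophagy genes rose in 15 of 44 and fell in 8, with the acid glucosidase gene Gaa higher (0.56). Glycolysis and hypoxia genes split 9 and 9 of 32, and MHC class I and antigen processing genes rose in 2 of 15 and fell in 4, led by the immunoproteasome gene Psmb10 (−0.84).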
